A study of Mus musculus with 35 samples.

Results

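A macrophage is recognised by a small number of transcription factors and surface proteins, and 9 genes of this kind were followed across 35 RNA-seq libraries of mouse bone marrow-derived macrophages (BMDMs). They were the transcription factor genes Spi1 and Maf, the surface marker genes Adgre1 and Itgam, the receptor gene Trem2 with its adaptor gene Tyrobp, the endosomal marker gene Cd68, and the lysozyme genes Lyz2 and Lyz1. The genes were chosen by name, as the Ensembl identifiers in the expression tables that carry these symbols in the mouse annotation, which gave 1 identifier per symbol and 9 of 47069 identifiers in all. Levels are given as FPKM, fragments per kilobase of transcript, scaled to the number of fragments of the library. Cells came from C57BL/6 mice that were wild type (17 libraries) or labelled AMPKa1-/- (18 libraries), a label that names loss of the alpha1 catalytic subunit of AMP-activated protein kinase, encoded by Prkaa1. In each genotype, BMDMs were treated for 24 h with vehicle (DMSO), with 100 nM dexamethasone (Dex, a synthetic glucocorticoid), with 100 ng/ml lipopolysaccharide (LPS, a component of the bacterial outer membrane), with LPS + Dex, with 1 µg/ml DAMPs (damage-associated molecular patterns, whose composition is not given in the sources used here), or with DAMPs + Dex. Each of the 12 groups had 3 libraries except wild-type LPS, which had 2 (replicates 2 and 3). The cells were grown from marrow of femur and tibia in medium conditioned by L929 cells, which secrete the growth factor CSF-1, so the cultures model CSF-1-driven macrophages without other tissue. The labels give no ages, and the study's methods describe young adult cohorts of both sexes. The comparisons asked how each agent, and Dex beside each inflammatory agent, changed the 9 genes, and whether the genotype label made a difference.

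The 9 genes fall into 4 roles. Spi1 encodes PU.1, an ETS-family factor that opens and holds macrophage enhancers, and Maf encodes c-MAF, a basic leucine zipper factor that restrains self-renewal of mature macrophages and favours an anti-inflammatory state. Adgre1 encodes F4/80, an adhesion G protein-coupled receptor used to define mouse macrophages, and Itgam encodes CD11b, the integrin alpha chain that pairs with CD18 to form complement receptor 3. Trem2 encodes a receptor for lipids and apoptotic cells that has no signalling motif of its own and signals through DAP12, the product of Tyrobp, which also serves other activating receptors. Cd68 encodes a glycoprotein of endosomes and lysosomes, and Lyz2 and Lyz1 are neighbouring paralogs for lysozyme, which cleaves bacterial cell walls. Lyz2 is the form of myeloid cells and Lyz1 that of Paneth cells in the gut. Glucocorticoids bind the glucocorticoid receptor, which activates some genes and represses many inflammatory ones, and LPS acts through Toll-like receptor 4.

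Depth could be read from the smallest step of the FPKM values in each library and ran from 15837203 to 31955298 fragments. The least abundant reading of any of the 9 genes, for Lyz1, still rested on 127 fragments. The lowest for Trem2 was 6.71 FPKM. No fragment count is given for it, because the annotated length of Trem2 did not give whole counts. Replicates of a group correlated at 0.967 to 0.993 (Pearson r over genes). Prkaa1, the gene named by the genotype label, read 15.9, 11.8 and 15.3 FPKM in the 3 wild-type vehicle libraries and 14.8, 16.5 and 15.4 in the 3 labelled AMPKa1-/-. With Dex the readings were 26.1, 23.2 and 19.1 in wild type and 21.5, 14 and 20.4 in libraries labelled AMPKa1-/-, and with LPS 15.3 and 10.4 and 9.05, 11.2 and 10.5. The genotypes overlapped in each of these treatments. They also overlapped with LPS + Dex, at 20.5, 13.7 and 8.59 against 12.5, 12.9 and 9.65 FPKM. With DAMPs the readings were 17.9, 12.4 and 11 against 10.7, 15.8 and 16.4, and with DAMPs + Dex 20.9, 12.5 and 19.5 against 21.8, 20.0 and 24, again with overlap. Prkaa1 was thus not measurably lower in the libraries labelled AMPKa1-/-, with adjusted p from 0.35 to 1 over the 6 treatments in limma. A level over the whole gene need not fall where only part of it is deleted, so it does not check the label either way, and the genotype is called here by its label.

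Genes known to respond to the agents moved in wild type. Tsc22d3, a glucocorticoid-induced gene that encodes GILZ, read 54.3, 51.7 and 54.6 FPKM in wild-type vehicle libraries and 724, 667 and 736 with Dex. Il1b, which encodes interleukin-1 beta, read 3.77, 5.67 and 5.45 with vehicle and 13932 and 16653 with LPS. Acod1, which encodes the itaconate-producing enzyme, rose from readings between 1.43 and 2.71 with vehicle to 1250.3 and 1807 with LPS (9.06 ± 0.39 on the log2 scale), and read 6.40, 2.64 and 11.3 with DAMPs. Of the 6 genes fixed to check the agents, 3 were higher and 2 lower with Dex in wild type, 4 were higher and 1 lower with LPS, and 1 was higher with DAMPs. The cells also carried defining macrophage markers outside the 9 genes: the wild-type vehicle mean was 577 ± 85.8 FPKM (SD, n = 3) for Csf1r, the CSF-1 receptor, 217 ± 30.9 for Cd14, an LPS co-receptor, 80.6 ± 19.5 for Fcgr1, an Fc receptor, and 37.8 ± 4.49 for Mertk, a receptor for dying cells.

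LPS and Dex each changed several of the 9 genes, DAMPs alone changed none that passed the test, and the levels ranged over more than 3 orders of magnitude between genes. The largest falls with LPS in wild type were those of Trem2 (85.9-fold) and Cd68 (8.14-fold), and the largest with Dex was that of Itgam (5.52-fold, all as ratios of group mean FPKM). A change was called where limma on log2(FPKM + 1) gave a Benjamini-Hochberg adjusted p under 0.05 over all genes tested. Dex against vehicle called 5 of the 9 genes in wild type (1 higher, 4 lower), against 30.9% of the 11354 genes tested, and 3 of 9 in libraries labelled AMPKa1-/- (0 higher, 3 lower), against 27.9%. The median log2 fold change of the 9 was -0.60 and -0.22, beside 0.05 and -0.05 over all genes. LPS against vehicle called 6 of the 9 genes in wild type (1 higher, 5 lower), against 55.7% of the 11354 genes tested, and 6 of 9 in libraries labelled AMPKa1-/- (1 higher, 5 lower), against 64.3%, with medians of -0.61 and -0.62 beside -0.19 and -0.30. For LPS the share of the 9 called was thus close to that of all genes. LPS + Dex against LPS called 2 of the 9 genes in wild type (2 higher, 0 lower), against 34.1% of the 11354 genes tested, and 3 of 9 in libraries labelled AMPKa1-/- (2 higher, 1 lower), against 37.7%, with medians of 0.35 and 0.23 beside -0.03 and 0.01. Against vehicle, LPS + Dex called 5 of the 9 genes in wild type (1 higher, 4 lower), against 54.2% of the 11354 genes tested, and 4 of 9 in libraries labelled AMPKa1-/- (1 higher, 3 lower), against 57.4%, with medians of -0.00 and -0.19 beside -0.23 and -0.28. For LPS + Dex against vehicle the share of the 9 called was close to that of all genes in wild type. It was below that of all genes in libraries labelled AMPKa1-/-. The LPS contrasts share the LPS or vehicle libraries and are not independent of each other. DAMPs against vehicle called 0 of the 9 genes in wild type (0 higher, 0 lower), against 2.01% of the 11354 genes tested, and 0 of 9 in libraries labelled AMPKa1-/- (0 higher, 0 lower), against 4.13%, with medians of 0.04 and 0.12 beside -0.03 and -0.07. At an unadjusted p under 0.05 the count was 2 of 9 in each genotype, beside 1099 and 1509 of the 11354 genes tested. The 228 genes called with DAMPs over all genes in wild type became 26 without replicate 3 and 372 without replicate 2 of the DAMPs group, 114 and 81 without replicate 1 and 3 of the vehicle group, and 0 with only the groups compared. In libraries labelled AMPKa1-/- 469 became 267 to 311 without replicate 2 or 3 of the vehicle group or replicate 1 or 3 of the DAMPs group, and 274 with only the groups compared. DAMPs + Dex against DAMPs called 5 of the 9 genes in wild type (1 higher, 4 lower), against 24.3% of the 11354 genes tested, and 6 of 9 in libraries labelled AMPKa1-/- (1 higher, 5 lower), against 25.3%, with medians of -0.55 and -0.53 beside 0.03 and 0.07.

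**Figure D1:**
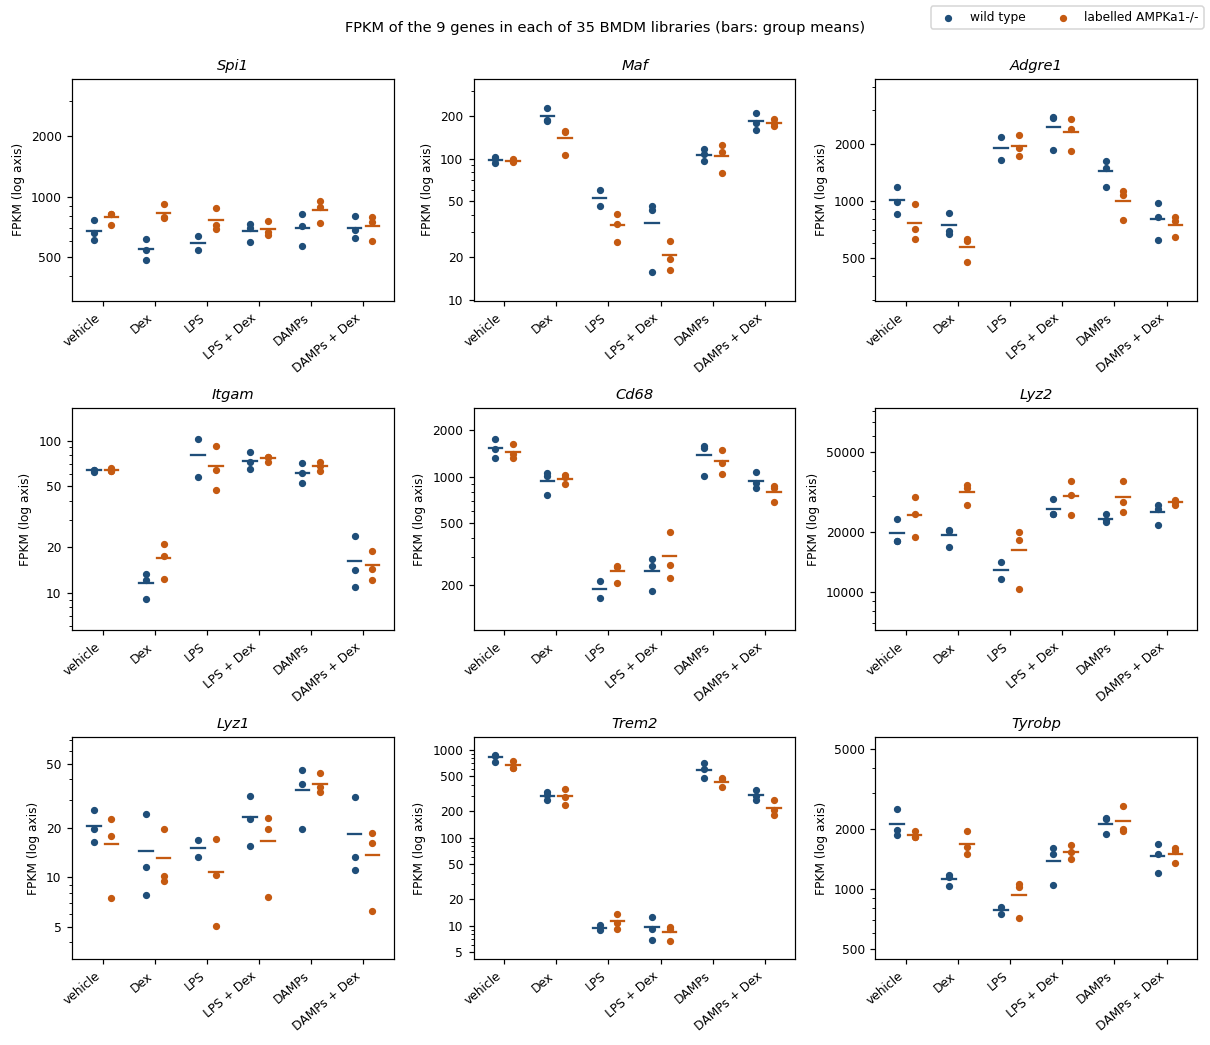
FPKM (log axis, a separate range per gene) of each of the 9 genes in each of the 35 libraries by treatment; points are libraries, short bars are group means, blue is wild type and orange is labelled AMPKa1-/-. Trem2 and Cd68 sit lowest in the 4 groups with LPS, Itgam sits lowest in the 4 groups with Dex and without LPS, and Spi1 stays between 485 and 947 FPKM.

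FPKM is relative to everything else in a library, and that base differed with LPS. Saa3, an acute-phase gene, alone held 7.12% to 7.20% of the summed FPKM in wild-type LPS libraries and 16.0% to 24.0% in wild-type LPS + Dex libraries, and 3.74% to 7.58% and 16.5% to 21.5% in the corresponding libraries labelled AMPKa1-/-, against at most 0.0344% with vehicle. The median gene read -0.19 with LPS and -0.23 with LPS + Dex against vehicle in wild type on the log2 scale, and -0.30 and -0.28 in libraries labelled AMPKa1-/-. Rescaled without Saa3, these medians were -0.095 and 0.037 in wild type and -0.23 and -0.028 in libraries labelled AMPKa1-/-. Of all genes called with LPS, 35.7% were higher in wild type as deposited and 46.3% once libraries were centred on a common median, and 31.4% and 49.0% in libraries labelled AMPKa1-/-. For LPS + Dex against vehicle the shares were 31.7% and 50.3% in wild type and 29.0% and 50.9% in libraries labelled AMPKa1-/-. For LPS + Dex against LPS the share higher was 48.7% in wild type and 51.2% in libraries labelled AMPKa1-/- as deposited, and 69.1% and 71.5% when libraries were rescaled without Saa3. Several smaller changes with LPS depended on these scalings for their call or direction. In bulk RNA, fewer cells of a type and less RNA of a gene per cell cannot be told apart, and this applies to each fall described here.

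Spi1 held a high level in every group (ENSMUSG00000002111, chr2:91082390-91115756, plus strand, GRCm38). Wild-type libraries read 656, 765 and 605 FPKM with vehicle, 540.5, 485 and 618 with Dex and 539.9 and 637 with LPS. Libraries labelled AMPKa1-/- read 817, 725 and 821, 784, 922 and 795 and 725, 690.2 and 879.9 in the same order. These ranges overlapped between treatments within each genotype. With LPS + Dex the readings were 593, 727 and 699 in wild type and 645, 669 and 758 in libraries labelled AMPKa1-/-. With DAMPs they were 566, 711 and 823 and 947, 889 and 742, and with DAMPs + Dex 682, 798 and 619 and 602, 795 and 745. None of the 12 treatment contrasts of Spi1 passed the test. The largest in size was -0.30 ± 0.14 (SE) on the log2 scale for Dex in wild type, with a 95% interval of -0.60 to -0.00 and an adjusted p of 0.113. For LPS the intervals were -0.53 to 0.14 in wild type and -0.34 to 0.25 in libraries labelled AMPKa1-/-. Where libraries were centred on a common median, the small negative LPS value in libraries labelled AMPKa1-/- became 0.23.

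Maf rose with Dex alone in wild type and with Dex beside DAMPs in both genotypes, fell with LPS, and had its lowest readings with LPS + Dex (ENSMUSG00000055435, chr8:115682942-115707794, minus strand). Wild-type vehicle libraries read 93.7, 103 and 98.6 FPKM and wild-type Dex libraries 188, 230.1 and 185, with no overlap. The change was 1.02 ± 0.25 (SE, adjusted p = 0.00316) on the log2 scale in wild type. In libraries labelled AMPKa1-/-, Maf read 95.7, 98.8 and 95.2 with vehicle and 155, 107 and 156 with Dex, again without overlap, and the estimate of 0.50 ± 0.25 did not pass the test (adjusted p = 0.15, 95% interval -0.02 to 1.02), though it did when libraries were centred on a common median (0.59, adjusted p = 0.0267) or only the groups compared were fitted (adjusted p = 0.0376). With LPS, Maf read 59.6 and 46.2 in wild type and 25.7, 40.7 and 34.6 in libraries labelled AMPKa1-/-, all below every vehicle library. It fell by 0.89 ± 0.28 and by 1.52 ± 0.25 on the log2 scale (adjusted p = 0.00918 and 8.53e-06). The wild-type call rested on replicate 3 of the LPS group, without which the value was -0.71 (adjusted p = 0.112). LPS + Dex took Maf to 43.5, 45.9 and 15.7 FPKM in wild type and to 19.5, 26.1 and 16.1 in libraries labelled AMPKa1-/-, where 1 of 3 libraries lay within the LPS range. Relative to LPS alone, the change was -0.71 ± 0.28 (SE, adjusted p = 0.0542) in wild type, short of the threshold, and -0.69 ± 0.25 (SE, adjusted p = 0.0339) in libraries labelled AMPKa1-/-, where the call was lost without replicate 2 or 3 of the LPS group or replicate 1 or 3 of the LPS + Dex group (-0.66 to -0.53), when libraries were rescaled without Saa3 (-0.49) and with no filter on low values (adjusted p = 0.0772). The wild-type difference was called without replicate 1 or 2 of the LPS + Dex group, at -0.93 and -0.97, and after centring (-0.64, adjusted p = 0.0266) or median-of-ratios scaling (-0.69, adjusted p = 0.0251). Maf with DAMPs, at 116, 108 and 95.6 in wild type and 79, 112 and 124 in libraries labelled AMPKa1-/-, overlapped the vehicle range. DAMPs + Dex raised it to 179, 161 and 211 and 191, 169 and 179, above all DAMPs libraries. The changes were 0.78 ± 0.25 (SE, adjusted p = 0.0248) and 0.79 ± 0.25 (SE, adjusted p = 0.0211). Both calls were lost with no filter on low values (adjusted p = 0.0595 and 0.0523) and without single libraries: in wild type the call was lost without replicate 2 or 3 of the DAMPs group or replicate 1 or 3 of the DAMPs + Dex group (0.67 to 0.79), and in libraries labelled AMPKa1-/- without replicate 1 of the DAMPs group or replicate 1 or 3 of the DAMPs + Dex group (0.60 to 0.80).

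Adgre1, the F4/80 gene, was highest in the 4 groups that received LPS (ENSMUSG00000004730, chr17:57358691-57483527, plus strand). It read 989, 1179.6 and 849 FPKM with vehicle and 2171 and 1636 with LPS in wild type, and 706, 959 and 626 and 1900.5, 2213 and 1719 in libraries labelled AMPKa1-/-. No LPS library overlapped a vehicle library of its genotype. The rise was 0.92 ± 0.23 (SE, adjusted p = 0.00129) and 1.36 ± 0.21 (SE, adjusted p = 1.84e-06) on the log2 scale. Adding Dex to LPS gave 2745, 2751 and 1840.4 FPKM in wild type and 2393, 2684 and 1821 in libraries labelled AMPKa1-/-, which overlapped LPS alone, and the differences of 0.35 ± 0.23 and 0.23 ± 0.21 did not pass the test. Rescaled without Saa3, the wild-type difference was 0.56 and passed narrowly (adjusted p = 0.0496). Without LPS, Dex gave 861, 669 and 688 in wild type and 474, 612 and 623 in libraries labelled AMPKa1-/-. These changes of -0.44 ± 0.21 and -0.41 ± 0.21 were not called (adjusted p = 0.105 and 0.145), but the wild-type one was after centring (-0.53, adjusted p = 0.0341) or median-of-ratios scaling (-0.51, adjusted p = 0.0471). DAMPs libraries read 1621, 1480.1 and 1182 in wild type, all above the vehicle libraries by a narrow margin, and 789, 1130.5 and 1067 in libraries labelled AMPKa1-/-. Dex beside DAMPs brought the wild-type libraries to 975, 619 and 816, a change of -0.84 ± 0.21 (SE, adjusted p = 0.00282). In libraries labelled AMPKa1-/- the same comparison gave 817, 778 and 644 FPKM and a change of -0.41 ± 0.21 (SE, adjusted p = 0.161), with overlap and without a call.

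Itgam, the CD11b gene, was low in each group that received Dex without LPS and near the vehicle level in all others (ENSMUSG00000030786, chr7:128062640-128118491, plus strand). Wild-type libraries read 63.9, 62.5 and 64.3 FPKM with vehicle and 9.12, 13.3 and 12.1 with Dex. Libraries labelled AMPKa1-/- read 63.3, 66.2 and 62.8 and 17.5, 21 and 12.3. Every Dex library lay below every vehicle library, and the vehicle libraries of both genotypes lay close together. The change was -2.38 ± 0.23 (SE, adjusted p = 8.82e-09) in wild type and -1.89 ± 0.23 (SE, adjusted p = 4.64e-07) in libraries labelled AMPKa1-/-. The fall was also seen beside DAMPs: wild-type libraries read 52.2, 61.4 and 70.7 with DAMPs and 10.9, 23.4 and 14.2 with DAMPs + Dex, and libraries labelled AMPKa1-/- read 72.6, 68 and 63.3 and 14.4, 18.8 and 12.1. The groups did not overlap, and the changes were -1.92 ± 0.23 (SE, adjusted p = 3.24e-07) and -2.12 ± 0.23 (SE, adjusted p = 6.17e-08). Beside LPS there was no such fall. With LPS, wild-type libraries read 102 and 57.5 and libraries labelled AMPKa1-/- 64.1, 91.5 and 47.1, and with LPS + Dex 64.9, 83.8 and 72.1 and 72.5, 78 and 78.5. The LPS libraries were the most scattered and held the LPS + Dex libraries within their range, and LPS + Dex differed from LPS by -0.07 ± 0.26 (95% interval -0.60 to 0.47) in wild type and 0.22 ± 0.23 (95% interval -0.26 to 0.70) in libraries labelled AMPKa1-/-. Without replicate 2 of the wild-type LPS group the wild-type value became 0.34. Itgb2, which encodes the CD18 partner chain, had means of 665 FPKM with vehicle, 542 with Dex, 457 with LPS and 553 with LPS + Dex in wild type. Its change with Dex did not pass the test, and its change with LPS, -0.53 on the log2 scale, did. Itgax, the CD11c gene and another partner of CD18, fell with Dex in wild type (-1.88), from a mean of 224 to 57.2 FPKM.

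**Figure D2:**
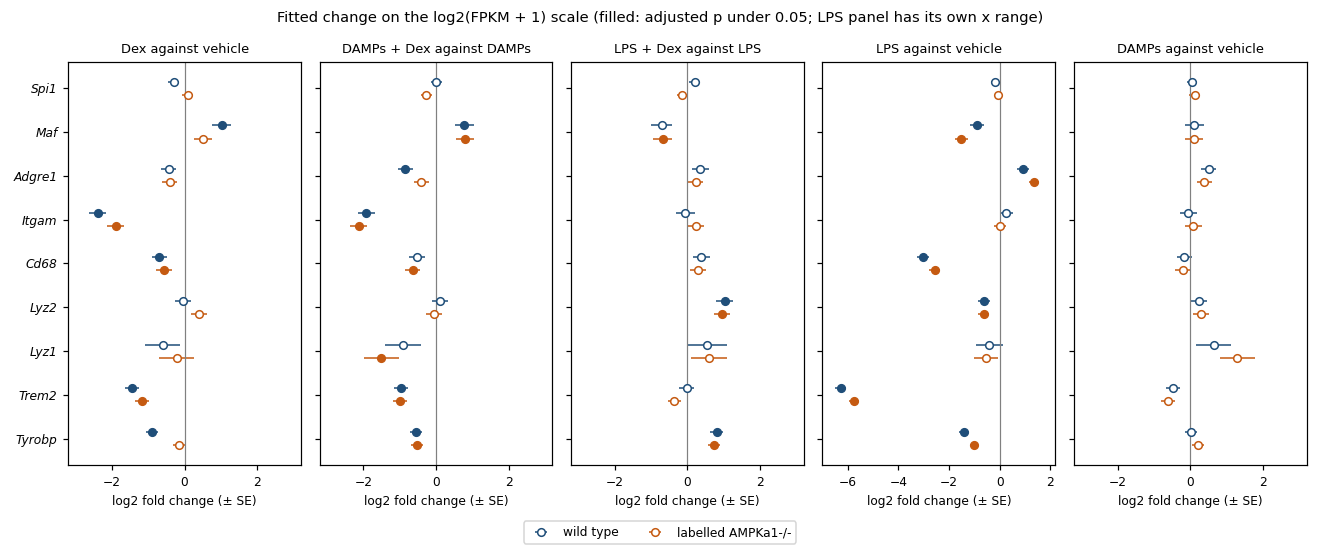
Fitted log2 fold change (x axis, log2(FPKM + 1) scale; bars are ± SE) of each gene for 5 comparisons, blue for wild type and orange for labelled AMPKa1-/-; filled points have an adjusted p under 0.05. Itgam lies at -2.38 for Dex and -0.07 for LPS + Dex in wild type, Trem2 at -6.28 for LPS in wild type on that panel's wider axis, and no point is filled for DAMPs.

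Trem2 showed the widest range of the 9 genes (ENSMUSG00000023992, chr17:48346401-48354147, plus strand). Wild-type vehicle libraries read 856, 869 and 729.9 FPKM, and those with LPS read 10.2 and 8.85. Libraries labelled AMPKa1-/- read 619.8, 615 and 749.5 and 9.30, 10.9 and 13.6. The means differed 85.9-fold in wild type and 58.7-fold in libraries labelled AMPKa1-/-, and the log2 changes were -6.28 ± 0.21 (SE, adjusted p = 2.42e-19) and -5.76 ± 0.19 (SE, adjusted p = 7.21e-20). Dex alone also lowered Trem2, to 267, 331 and 307 FPKM in wild type and 289.6, 360.0 and 234 in libraries labelled AMPKa1-/-. These changes were smaller, -1.44 ± 0.19 (SE, adjusted p = 1.32e-06) and -1.18 ± 0.19 (SE, adjusted p = 2.32e-05), and Dex libraries lay between the vehicle and the LPS libraries without overlap. Once LPS was present, Dex made no difference that passed the test: LPS + Dex libraries read 6.99, 12.6 and 9.22 in wild type and 9.69, 6.71 and 9.30 in libraries labelled AMPKa1-/-, differing from LPS alone by -0.02 ± 0.21 (95% interval -0.46 to 0.41) and -0.36 ± 0.19 (95% interval -0.75 to 0.03). DAMPs libraries read 478, 702 and 599 in wild type and 459, 472 and 373 in libraries labelled AMPKa1-/-, below the vehicle libraries in both genotypes, at -0.48 ± 0.19 and -0.61 ± 0.19 (adjusted p = 0.296 and 0.0736). DAMPs + Dex gave 295, 346 and 268 and 181, 267 and 208, all below the DAMPs libraries, with changes of -0.96 ± 0.19 (SE, adjusted p = 0.000312) and -0.998 ± 0.19 (SE, adjusted p = 0.000195).

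Tyrobp, the adaptor gene, fell with LPS, and rose when Dex was added to LPS (ENSMUSG00000030579, chr7:30413760-30417585, plus strand). It read 1969.9, 2496 and 1857 FPKM with vehicle, 813 and 754 with LPS and 1048, 1608 and 1500.4 with LPS + Dex in wild type. Libraries labelled AMPKa1-/- read 1956, 1819 and 1812, 1021, 1059 and 716 and 1534, 1410.2 and 1649. In both genotypes the LPS libraries lay below the vehicle libraries and below the LPS + Dex libraries. LPS changed Tyrobp by -1.41 ± 0.19 (SE, adjusted p = 2.44e-07) and -1.02 ± 0.17 (SE, adjusted p = 5.74e-06), and Dex beside LPS changed it by 0.80 ± 0.19 (SE, adjusted p = 0.00121) and 0.73 ± 0.17 (SE, adjusted p = 0.000767). The wild-type rise was not called with only the groups compared (adjusted p = 0.0651). Against vehicle, the LPS + Dex level was -0.62 ± 0.17 (SE, adjusted p = 0.00263) in wild type, a call that was lost when libraries were centred on a common median (-0.39) or rescaled without Saa3 (-0.31), with median-of-ratios scaling (-0.40) and with only the groups compared (adjusted p = 0.0538). Dex alone gave 1145, 1038 and 1177 FPKM in wild type, a change of -0.90 ± 0.17 (SE, adjusted p = 0.000139), and 1618, 1946 and 1487 in libraries labelled AMPKa1-/-, which overlapped vehicle (-0.15 ± 0.17, adjusted p = 0.532). DAMPs libraries read 1877, 2257 and 2229.5 and 2605, 1936 and 1989.8, and DAMPs + Dex libraries 1500.3, 1669.6 and 1206 and 1347, 1599.5 and 1547, in wild type and in those labelled AMPKa1-/-. That difference was -0.55 ± 0.17 (SE, adjusted p = 0.0152) and -0.53 ± 0.17 (SE, adjusted p = 0.0186). Neither was called with only the groups compared (adjusted p = 0.0854 and 0.0546), nor the wild-type one after centring (adjusted p = 0.0658). Single libraries mattered too: the difference lost its call in wild type without replicate 2 or 3 of the DAMPs group or replicate 3 of the DAMPs + Dex group (-0.51 to -0.42), and in libraries labelled AMPKa1-/- without replicate 1 of the DAMPs group (-0.39) or of the DAMPs + Dex group (-0.46).

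The sequence just before the start of Itgam and of Trem2 is shown because these genes had the largest falls with Dex and with LPS. Each stretch is the 250 bases before the annotated start, 5′ to 3′ on the gene's strand, from RefSeq on GRCm38.p6, at chr7:128062390-128062639 for Itgam and chr17:48346151-48346400 for Trem2, both on the plus strand. Capitals mark GAGGAA, the core of the site that PU.1 recognises, or its reverse complement. The table used here held a promoter for 5 of the 9 genes (Itgam, Cd68, Lyz2, Lyz1 and Trem2), and those of Spi1, Maf, Adgre1 and Tyrobp were not matched.
Itgam: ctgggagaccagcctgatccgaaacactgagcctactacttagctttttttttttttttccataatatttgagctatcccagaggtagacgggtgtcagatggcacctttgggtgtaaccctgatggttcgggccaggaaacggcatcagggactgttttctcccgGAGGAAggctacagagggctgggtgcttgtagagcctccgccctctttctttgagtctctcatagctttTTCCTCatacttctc
Trem2: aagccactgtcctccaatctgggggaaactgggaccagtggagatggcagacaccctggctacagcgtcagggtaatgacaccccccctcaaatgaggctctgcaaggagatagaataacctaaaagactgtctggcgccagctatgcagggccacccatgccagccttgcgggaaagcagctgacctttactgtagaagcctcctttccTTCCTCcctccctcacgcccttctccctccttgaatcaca
GAGGAA was searched on both strands and stood in 23.25% of 32851 promoters over the same 250 bases. Itgam held it 84 bases before the start on the gene's strand and again 15 bases before it on the other strand, Trem2 held it 40 bases before the start on the other strand, and Cd68 held it 225 bases before the start. The longer GAGGAAGT (2.441% of promoters) stood in none of the 5. TGCTGA, part of the Maf recognition element (16.08%), stood in Lyz2 at 125 bases, and AGAACA, 1 arm of the glucocorticoid response element (16.08%), in Lyz1 at 164 bases before the start. A match of letters is a description of the sequence and not a binding site.

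Cd68 had 3 levels by group mean, highest without LPS or Dex, lower with Dex and lowest with LPS (ENSMUSG00000018774, chr11:69664213-69666153, minus strand). Without Dex and LPS it read 1328, 1741 and 1498 FPKM with vehicle and 1015, 1585 and 1535 with DAMPs in wild type, and 1395, 1318 and 1619 and 1492, 1234 and 1042 in libraries labelled AMPKa1-/-. With LPS it read 211 and 163 in wild type and 265, 206 and 258 in libraries labelled AMPKa1-/-. LPS + Dex gave 183, 265 and 291 and 266, 221 and 436. All 11 libraries with LPS lay below all 24 without it, whereas single DAMPs libraries (1015 and 1042) lay below the highest wild-type libraries with Dex (1058) and DAMPs + Dex (1079). LPS changed Cd68 by -3.02 ± 0.24 (SE, adjusted p = 1.6e-11) in wild type and -2.57 ± 0.21 (SE, adjusted p = 3.24e-11) in libraries labelled AMPKa1-/-, and Dex added to LPS made differences of 0.38 ± 0.24 and 0.29 ± 0.21 that did not pass the test. Dex alone gave 759, 1013 and 1058 and 1027, 987 and 899 FPKM, below every vehicle library of the same genotype. This was a change of -0.70 ± 0.21 (SE, adjusted p = 0.0141) in wild type, not called without replicate 2 of the vehicle group (-0.60) or replicate 1 of the Dex group (-0.55). In libraries labelled AMPKa1-/- it was -0.57 ± 0.21 (SE, adjusted p = 0.0464) and lost its call when any of the 6 libraries was left out (-0.63 to -0.48). DAMPs + Dex gave 902, 1079 and 848 in wild type and 689, 866 and 847 in libraries labelled AMPKa1-/-, at -0.53 ± 0.21 (SE, adjusted p = 0.0734) and -0.64 ± 0.21 (SE, adjusted p = 0.0263) against DAMPs. The latter call was lost without replicate 1 (-0.51) or 2 (-0.65) of the DAMPs group or replicate 1 of the DAMPs + Dex group (-0.54), after centring (-0.70, adjusted p = 0.0524) and with no filter on low values (adjusted p = 0.0619).

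Lyz2 was the most abundant of the 9 genes and took 1.35% to 4.68% of the summed FPKM of a library (ENSMUSG00000069516, chr10:117277331-117282321, minus strand). It read 17922, 23014 and 18029.7 FPKM with vehicle and 14161 and 11553 with LPS in wild type. Adding Dex to LPS gave 24420.1, 24473 and 29195, above all LPS libraries. Libraries labelled AMPKa1-/- read 29598, 24405 and 18800.2 with vehicle, 19951, 18106 and 10344 with LPS and 35795, 30515 and 24248 with LPS + Dex, and here too LPS + Dex lay above LPS. The rise with Dex beside LPS was 1.02 ± 0.24 (SE, adjusted p = 0.00146) and 0.94 ± 0.22 (SE, adjusted p = 0.00091) on the log2 scale. It lost its call with no filter on low values (adjusted p = 0.0744 and 0.0650) and with only the groups compared (0.13 and 0.0907), and in wild type it was 0.44 (adjusted p = 0.0781) with quantile normalization. The LPS libraries were at -0.61 ± 0.24 (SE, adjusted p = 0.0345) and -0.62 ± 0.22 (SE, adjusted p = 0.0143). That call was lost when libraries were centred on a common median (-0.46 and -0.34), with median-of-ratios scaling (-0.42 and -0.34), with no filter, with only the groups compared, and in wild type when rescaled without Saa3 (-0.50), without replicate 2 of the vehicle group (-0.49) or replicate 3 of the LPS group (-0.46), in libraries labelled AMPKa1-/- without replicate 1 of the vehicle group (-0.47) or replicate 3 of the LPS group (-0.33). Quantile normalization gave -1.63 and -1.48, but it sets values by rank alone. Lyz2 was the most abundant gene in every vehicle library and in no LPS library. A fall was thus fixed before that method was applied, and its size is not read. Against vehicle, LPS + Dex gave 0.41 in wild type and 0.32 in libraries labelled AMPKa1-/-, neither called (adjusted p = 0.113 and 0.208), and the scaling decided the call. Lyz2 was called higher in wild type after centring (0.63), median-of-ratios scaling (0.63) or rescaling without Saa3 (0.72) and in libraries labelled AMPKa1-/- without Saa3 (0.61). Quantile normalization called it lower in both (-1.19 and -0.95). Rank fixed that direction in advance too, since Lyz2 led no LPS + Dex library, so nothing is read from it. Dex alone left readings of 20418, 16768 and 20238 in wild type and 33059, 33976 and 27100.5 in libraries labelled AMPKa1-/-, and the changes of -0.03 ± 0.22 and 0.39 ± 0.22 were not called. Over the DAMPs and DAMPs + Dex groups Lyz2 ran from 21592 to 35906 FPKM, and Dex beside DAMPs changed it by 0.10 ± 0.22 and -0.06 ± 0.22, without a call.

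Lyz1 read far lower than its neighbour (ENSMUSG00000069515, chr10:117287797-117292868, minus strand), at 0.0230% to 0.199% of the Lyz2 level in the same library on the FPKM scale. Its sequence is close to that of Lyz2: over 444 coding bases (GENCODE M21) 22 differ. Of the windows of the Lyz1 transcript, 16.1% of those of 50 bases and 2.06% of those of 100 bases also stand in that of Lyz2. Of the windows of 150 bases, 0% do. The second coding exon shows the likeness, on the minus strand of GRCm38 at chr10:117291029-117291193 for Lyz1 and chr10:117280641-117280805 for Lyz2, with the 6 differing bases of 165 in capitals.
Lyz1: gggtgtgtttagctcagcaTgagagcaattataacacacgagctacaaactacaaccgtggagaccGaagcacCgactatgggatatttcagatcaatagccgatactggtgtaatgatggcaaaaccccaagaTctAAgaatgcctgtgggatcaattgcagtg
Lyz2: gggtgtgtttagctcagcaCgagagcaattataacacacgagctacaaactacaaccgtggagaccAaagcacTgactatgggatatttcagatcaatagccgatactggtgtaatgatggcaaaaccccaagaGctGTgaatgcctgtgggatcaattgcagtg
How reads that match both genes were handled is not given in the sources used here, so the Lyz1 level is uncertain. It read 25.9, 16.5 and 19.8 FPKM with vehicle and 45.4, 19.8 and 37.3 with DAMPs in wild type, and 18, 22.8 and 7.47 and 33.7, 35.7 and 43.5 in libraries labelled AMPKa1-/-. DAMPs + Dex gave 31, 11.2 and 13.4 and 18.8, 16.3 and 6.24. The 3 DAMPs libraries labelled AMPKa1-/- lay above all vehicle and DAMPs + Dex libraries so labelled. The difference between DAMPs + Dex and DAMPs was -1.504 ± 0.49 (SE, adjusted p = 0.0223) in libraries labelled AMPKa1-/-, and was not called without replicate 2 (-1.54) or 3 (-1.40) of the DAMPs group or replicate 3 of the DAMPs + Dex group (-1.05), or with no filter on low values (adjusted p = 0.0578). In wild type it was -0.91 ± 0.49 (SE, adjusted p = 0.193). DAMPs against vehicle gave 0.64 ± 0.49 and 1.30 ± 0.49, neither of which passed the test (adjusted p = 0.891 and 0.168). Lyz1 had the widest standard errors of the 9 genes. With Dex, LPS and LPS + Dex it ran from 5.05 to 31.8 FPKM and no comparison passed the test.

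For several of the 9 genes the change with Dex differed when LPS was present. This was tested as the Dex change beside LPS minus the Dex change alone, a comparison added after the data had been seen. It was called for 6 of the 9 genes in wild type, against 32% of all genes tested, and for 5 of 9 in libraries labelled AMPKa1-/-, against 28.4%. For Itgam the difference was 2.32 ± 0.35 (SE, adjusted p = 1.06e-05) in wild type and 2.12 ± 0.33 (SE, adjusted p = 1.5e-05) in libraries labelled AMPKa1-/-. For Tyrobp it was 1.70 ± 0.25 (SE, adjusted p = 6.61e-06) and 0.89 ± 0.24 (SE, adjusted p = 0.00486), and for Maf, where the sign was opposite, -1.73 ± 0.38 (SE, adjusted p = 0.000975) and -1.19 ± 0.36 (SE, adjusted p = 0.0132). Trem2 gave 1.42 ± 0.28 in wild type, where its LPS level was already 9.52 FPKM on average, and 0.82 ± 0.27 in libraries labelled AMPKa1-/-, a call lost without replicate 3 of the vehicle or Dex group or replicate 1 of the LPS or LPS + Dex group (0.67 to 0.74), after centring (0.75) or with median-of-ratios scaling (0.79). Cd68 gave 1.07 ± 0.32 and 0.86 ± 0.30, both called and both lost without single libraries, the latter also with no filter (adjusted p = 0.0717), after centring (0.78) or with median-of-ratios scaling (0.82). In wild type the library was replicate 3 of the LPS group (0.89 without it), which also decided the wild-type call of Lyz2 (1.05 ± 0.33, 0.91 without it). That of Lyz2 was also lost with no filter (adjusted p = 0.192) and with quantile normalization (0.44). The latter held Lyz2 at the same top value with vehicle and with Dex, by rank. Lyz2 in libraries labelled AMPKa1-/- gave 0.55 ± 0.31 without a call. Spi1, Adgre1 and Lyz1 were called in neither genotype. Adgre1, at 0.79 (adjusted p = 0.0512) in wild type and 0.64 (adjusted p = 0.105) in libraries labelled AMPKa1-/-, was near the threshold: it was called in wild type after centring (0.95), median-of-ratios scaling (0.88) or rescaling without Saa3 (0.99) and among genes of at least 5 FPKM (adjusted p = 0.0487), and in libraries labelled AMPKa1-/- without Saa3 (0.85), with quantile normalization (0.86) and with the replicate block (adjusted p = 0.0409). Spi1 was called in wild type without Saa3 (0.70, adjusted p = 0.0167). The same comparison with DAMPs in place of LPS called 0 of the 9 in wild type, against 0.00881% of all genes, and 0 of 9 in libraries labelled AMPKa1-/-, against 0.308%. The 35 genes behind the latter share ran from 0 to 49 when single libraries were left out. The count was 0 without replicate 3 of the vehicle group or replicate 1 or 2 of the Dex group. It was also 0 without replicate 1 or 3 of the DAMPs group or replicate 1 of the DAMPs + Dex group. The count became 113 with only the groups compared and 106 with the replicate block. In wild type 1 gene became 39 without replicate 2 of the DAMPs group. For Itgam it was 0.46 ± 0.33 (95% interval -0.22 to 1.14) and -0.23 ± 0.33 (95% interval -0.91 to 0.45). Limma was used for each of these tests.

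**Figure D3:**
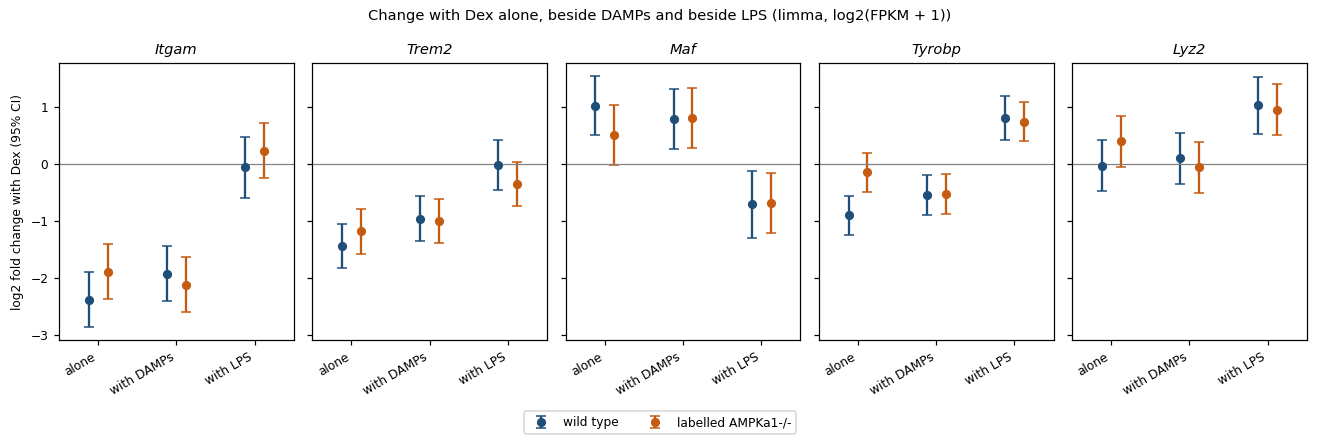
Fitted log2 change with Dex (y axis, log2(FPKM + 1) scale; bars are 95% intervals) given alone, beside DAMPs and beside LPS for 5 of the genes, blue for wild type and orange for labelled AMPKa1-/-. For Itgam the changes alone and beside DAMPs lie below 0 and those beside LPS have intervals that include 0; Maf lies above 0 alone (in libraries labelled AMPKa1-/- with an interval that includes 0) and below 0 beside LPS, and Tyrobp and Lyz2 lie above 0 beside LPS.

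Between the genotypes, differences among the 9 genes were called with Dex and in no other treatment. With vehicle 0 of 9 were called, against 0.432% of all genes. With Dex 3 of 9 were called, against 26.5%, so the share of the 9 was close to that of all genes. The 3 were Spi1, Lyz2 and Tyrobp, each higher in libraries labelled AMPKa1-/-. Spi1 with Dex read 540.5, 485 and 618 FPKM in wild type and 784, 922 and 795 in libraries labelled AMPKa1-/-, a difference of 0.61 ± 0.14 (SE, adjusted p = 0.00795). Lyz2 differed by 0.71 ± 0.22 (SE, adjusted p = 0.0221) and Tyrobp by 0.58 ± 0.17 (SE, adjusted p = 0.0171). None of these 3 called genes overlapped between genotypes. The share of all genes without overlap was not counted, so no weight is put on this. All 3 calls were lost without replicate 2 of the wild-type Dex group (0.52, 0.62 and 0.53) or replicate 2 of the Dex group labelled AMPKa1-/- (0.53, 0.65 and 0.47), and that of Lyz2 also without replicate 1 of the latter group (0.67), with no filter and with only the groups compared (adjusted p = 0.186 and 0.157). With quantile normalization none of the 3 was called (Spi1 at 0.28 and Tyrobp at 0.18). Lyz2 was then at 0 by rank, as it was the most abundant gene in every Dex library. That setting called Maf (-0.66), Adgre1 (-0.61) and Itgam (0.67) instead. Over all genes the count fell from 3008 to 304 without replicate 2 of the wild-type Dex group. Of the called genes 41.4% were higher in libraries labelled AMPKa1-/- as deposited and 59.1% after centring. Markers of neutrophils moved with this comparison: 6 of the 7 tested were higher in libraries labelled AMPKa1-/- with Dex (median 1.43 on the log2 scale), and their summed level was 48.3 to 66.1 FPKM in wild-type Dex libraries and 104 to 142 in those labelled AMPKa1-/-. Of 5 fibroblast markers tested, 3 were lower (median -1.02). Their part in the result was not tested. With LPS 0 of 9 were called, against 0.766% of all genes, with LPS + Dex 0 against 0.669%, with DAMPs 0 against 0.731%, and with DAMPs + Dex 0 against 1.06%. The counts of all genes moved when single libraries were left out. With vehicle 49 ran from 28 to 58 and with LPS + Dex 76 ran from 36 to 110. With DAMPs 83 ran from 25 to 55 and with DAMPs + Dex 120 ran from 49 to 97. With LPS 87 became 22 without replicate 1 of the LPS group labelled AMPKa1-/-. Without replicate 3 of the wild-type LPS + Dex group, the library with the lowest Maf of that group, Maf was called lower in libraries labelled AMPKa1-/- with LPS + Dex, at -1.11.

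Whether the response itself differed between genotypes was tested as an interaction for 5 responses. None of the 9 genes passed for Dex, for LPS, for LPS + Dex against LPS, for DAMPs or for DAMPs + Dex against DAMPs, where the shares of all genes called were 0%, 0%, 0%, 0% and 0% in limma. At an unadjusted p under 0.05 the counts of genes were 2441, 514, 311, 66 and 234, and of the 9 genes 1, 0, 0, 0 and 0. The 1 gene was Tyrobp for Dex, with a difference of 0.75 ± 0.24 (SE, adjusted p = 0.194) and a 95% interval of 0.26 to 1.23. The falls of Itgam and Trem2 with Dex differed between genotypes by 0.49 ± 0.33 (95% interval -0.19 to 1.17) and 0.26 ± 0.27 (95% interval -0.29 to 0.81). For the fall of Trem2 with LPS the interval was -0.07 to 1.10 and for the rise of Adgre1 -0.19 to 1.08. The Maf rise with Dex, called in wild type and not in libraries labelled AMPKa1-/-, differed by -0.52 ± 0.36 (95% interval -1.26 to 0.22).

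Ordered by group mean, the 9 genes separated the 12 groups to different degrees. For Itgam, the 8 groups with LPS or without Dex had means from 61.4 to 79.9 FPKM and neighbours in the order overlapped, whereas the 4 groups with Dex and without LPS had means from 11.5 to 16.9 and did not overlap the others. Trem2 fell into 4 steps without overlap, with both vehicle groups and wild-type DAMPs at the top, DAMPs labelled AMPKa1-/- next, the 4 groups with Dex and without LPS below, and the 4 LPS groups at 8.57 to 11.3 FPKM. Cd68 fell into 3 steps by group mean, with vehicle and DAMPs groups at 1256 to 1522, groups with Dex and without LPS at 800.2 to 971, and LPS groups at 187 to 308. Maf was highest in wild-type Dex and both DAMPs + Dex groups and lowest in the LPS groups. For Adgre1 the 4 LPS groups came first and wild-type DAMPs next. Neighbouring groups of Spi1, Lyz2, Lyz1 and Tyrobp overlapped throughout the order. Over the 12 group means on the log2 scale, which share libraries and depth within a group, Cd68 and Trem2 ran together (r = 0.989) and Maf ran opposite to Adgre1 (r = -0.902). Spi1 had r of -0.24 to 0.56 with the other genes.

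Among all genes tested, those whose 12 group means were most like each of the 9 were picked by Pearson r on the log2 scale, as a description. For Trem2 they were Fam110b (r = 0.996), Emp1 (0.995) and Spg21 (0.995), and for Cd68 Dhrs3 (r = 0.994), Gm22655 (0.994) and Treml1 (0.993); Treml1 is a TREM-family receptor gene. For Maf they were Arrdc3 (r = 0.991), Wdtc1 (0.990) and Spire1 (0.988), and for Itgam Tnip3 (r = 0.980), Impa1 (0.9754) and Ncf4 (0.9747), of which Ncf4 encodes a subunit of the phagocyte NADPH oxidase. For Adgre1 they were Cybb (r = 0.978), Ikbke (0.978) and Gpr18 (0.966); Cybb encodes the catalytic subunit of the same oxidase. For Tyrobp they were Tmem51 (r = 0.965), Ckb (0.963) and 1110019D14Rik (0.958). The likeness was weaker for Lyz2, with Abhd17a (r = 0.946), Cox7a2l (0.939) and Tysnd1 (0.920), for Spi1, with Ltbr (r = 0.932), Ppp1ca (0.899) and Gpsm3 (0.874), and for Lyz1, with Kptn (r = 0.874), Zfp286 (0.871) and Stkld1 (0.849).

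Counts for the lists of other genes are to be read against the shares of all genes called, 30.9% with Dex, 55.7% with LPS, 34.1% for LPS + Dex against LPS and 24.3% for DAMPs + Dex against DAMPs in wild type, and 27.9%, 64.3%, 37.7% and 25.3% in libraries labelled AMPKa1-/-, with medians over all genes of -0.19 and -0.30 for LPS. Other transcription factors of the myeloid lineage changed in both directions. Of 20 listed besides Spi1 and Maf, 19 were tested; Dex gave 3 higher and 6 lower in wild type, LPS 5 higher and 11 lower (median -0.73 on the log2 scale), and LPS + Dex against LPS 5 higher and 6 lower. In libraries labelled AMPKa1-/- the counts were 3 higher and 8 lower, 6 higher and 12 lower (median -0.80) and 7 higher and 6 lower. Falls with LPS in wild type included those of Cebpa, a regulator of myeloid commitment, from 141 ± 13 to a mean of 10.7 FPKM (-3.61 ± 0.16 on the log2 scale), and of Bhlhe41 (-2.81 ± 0.20). Klf4, a factor of monocyte differentiation, rose with Dex beside LPS (2.75 ± 0.24), whereas Egr2 (-2.57 ± 0.34) and Bhlhe40 (-2.44 ± 0.39) fell.

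Surface receptors of macrophages besides Adgre1, Itgam and Trem2 fell more often than they rose with Dex. Of 19 tested out of 20 listed, 2 higher and 9 lower were called with Dex in wild type (median -0.52), 6 higher and 10 lower with LPS (median -1.04), 5 higher and 8 lower with LPS + Dex against LPS, and 2 higher and 13 lower with DAMPs + Dex against DAMPs (median -0.92). In libraries labelled AMPKa1-/- these were 3 higher and 10 lower, 6 higher and 11 lower, 5 higher and 7 lower and 2 higher and 12 lower. Mrc1, the mannose receptor gene, had means of 191 FPKM with vehicle and 0.773 with LPS (-6.76 ± 0.20 on the log2(FPKM + 1) scale), and Lgals3, which encodes galectin-3, 4642 and 262 (-4.15 ± 0.15). Marco, a scavenger receptor gene, rose with LPS from 22.7 to 1478 (5.98 ± 0.32). With Dex beside LPS, Cd36 (-2.97 ± 0.46), Siglec1 (-2.42 ± 0.44) and Msr1 (-2.22 ± 0.26), receptors for lipids, sialylated ligands and modified lipoproteins, fell. Of the other macrophage markers given for vehicle, Csf1r had a mean of 228 FPKM with LPS in wild type, Fcgr1 one of 323 with LPS and 8.10 with Dex, and Mertk one of 204 with Dex.

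Relatives of the 9 genes did not share a direction. Of 22 listed and 19 tested, 2 higher and 5 lower were called with Dex in wild type, 4 higher and 9 lower with LPS and 3 higher and 3 lower with LPS + Dex against LPS, and in libraries labelled AMPKa1-/- 3 higher and 4 lower, 7 higher and 8 lower and 4 higher and 6 lower. While Trem2 fell with LPS, Trem3, which lies in the same receptor family, rose (5.09 ± 0.20 in wild type) and Treml1 fell (-4.59 ± 0.29). Itgal, the CD11a gene, rose from 10.8 to 427 FPKM (5.19 ± 0.30) where Itgam gave 0.27 ± 0.26 without a call. With Dex beside LPS, Maff, a small MAF factor, fell (-2.41 ± 0.25) and Adgre5, the CD97 gene, rose (2.09 ± 0.33). Genes of TREM2 and TYROBP signalling, of which 19 of 20 were tested, gave 4 higher and 9 lower with Dex in wild type, 7 higher and 7 lower with LPS and 4 higher and 3 lower with LPS + Dex against LPS, and 4 higher and 9 lower, 9 higher and 7 lower and 6 higher and 3 lower in libraries labelled AMPKa1-/-. Among them, Cd300lb, another receptor gene that uses DAP12, fell with LPS (-5.62 ± 0.22), and Siglece, an inhibitory sialic acid receptor gene (4.91 ± 0.26), and Pilrb1, an activating receptor gene (4.60 ± 0.27), rose. With Dex beside LPS, Blnk, an adaptor gene, fell (-1.44 ± 0.20), and Cd33 (0.92 ± 0.36) and Pik3r1 (0.68 ± 0.23) rose.

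Markers of other cell types that a marrow culture could hold were measured in the same libraries. The 12 neutrophil markers summed to 48.3, 118 and 1225 FPKM at the lowest, median and highest library, with S100a8 the most abundant (mean 106), and Ly6g, Mpo, Elane, Retnlg and Cxcr2 under 1 FPKM in all libraries. The sum was highest with LPS + Dex, at 545 to 1225 FPKM in wild type and 371 to 649 in libraries labelled AMPKa1-/-. S100a8, an antimicrobial calcium-binding protein gene that monocytes also express, rose with LPS (1.81 ± 0.54 in wild type) and with Dex beside LPS (5.28 ± 0.54), to 747 ± 353 FPKM (SD, n = 3), whereas Mmp8 fell with LPS (-2.37 ± 0.39) and Csf3r (-1.90 ± 0.20) fell with Dex beside LPS, as did Camp (-1.62 ± 0.33 after a rise of 6.30 ± 0.33 with LPS). The 10 dendritic cell markers summed to 157, 335 and 3984 FPKM, led by Bst2 (mean 951), an interferon-induced gene. Flt3, Zbtb46, Clec9a, Siglech and Itgae were under 1 FPKM and Cd209a was at 0 throughout. With LPS in wild type, Ccr7 (5.98 ± 0.26) and Bst2 (3.58 ± 0.34) rose and Clec10a (-3.25 ± 0.38) fell, and with Dex beside LPS each moved the other way (-5.16 ± 0.26, -1.70 ± 0.34 and 1.498 ± 0.38). The 8 osteoclast markers summed to 71.3, 158 and 781 FPKM, led by Acp5 (mean 156), which rose with LPS (3.94 ± 0.25) and again with Dex beside it (1.80 ± 0.25), while Atp6v0d2 (-4.94 ± 0.40) and Ctsk (-2.31 ± 0.27) fell with LPS, Dcstamp (-2.15 ± 0.33) fell with Dex beside LPS, and Ocstamp and Oscar stayed under 1 FPKM. The 8 fibroblast markers summed to 1.61, 7.68 and 27.9, led by Col1a2 (mean 2.62), with Pdgfra under 1 FPKM throughout. Pdgfrb (1.83 ± 0.23) and Dcn (1.82 ± 0.26) rose with LPS in wild type, and Pdgfrb fell with Dex beside it (-0.72 ± 0.23). The 10 T and B cell markers summed to 1.55, 7.86 and 37.1, nearly all from Cd4 (mean 9.62), which fell with LPS (-3.16 ± 0.34), with Cd3d, Cd3e, Cd3g, Cd8a, Cd79a, Ms4a1 and Nkg7 under 1 FPKM. The 7 mast cell and basophil markers summed to at most 1.53 FPKM, with Cpa3 the most abundant, and the 7 erythroid markers to at most 0.392, with Alas2 the most abundant, and none of either list reached a mean of 1 FPKM. Several of these sums separated the groups in which the 9 genes changed. With LPS, in both genotypes, the neutrophil and dendritic cell sums lay above vehicle and the T and B cell sum lay below it, at 3.17 to 3.48 against 16.6 to 19.5 FPKM in wild type and 1.55 to 1.86 against 7.58 to 12.3 in libraries labelled AMPKa1-/-. The fibroblast sum lay above vehicle in libraries labelled AMPKa1-/- (9.74 to 14.9 against 2.14 to 4.19). With LPS + Dex the neutrophil and osteoclast sums lay above LPS and the dendritic cell and fibroblast sums below it, and the T and B cell sum lay above LPS in libraries labelled AMPKa1-/- (2.09 to 3.57 against 1.55 to 1.86). Single genes carried the neutrophil and dendritic cell sums. In wild-type LPS + Dex libraries S100a8 alone read 478 to 1147 FPKM and Bst2 866 to 1498, while Csf3r and Camp fell against LPS. Dex alone went with a lower dendritic cell sum in wild type (157 to 213 against 282 to 335 FPKM) and a higher fibroblast sum in libraries labelled AMPKa1-/- (4.53 to 6.58 against 2.14 to 4.19). DAMPs + Dex went with lower dendritic cell sums than DAMPs, at 249 to 276 against 657 to 2431 in wild type and 209 to 261 against 1095 to 1154 in libraries labelled AMPKa1-/-, and with lower T and B cell sums, at 7.32 to 16.8 against 25.1 to 37.1 and 6.65 to 7.86 against 17.8 to 22.4. The fibroblast sum was higher with DAMPs + Dex in wild type, at 13.6 to 22.7 against 1.61 to 9.31. With DAMPs the dendritic cell and T and B cell sums lay above vehicle in both genotypes. Sums of mast cell and basophil markers, at most 1.53 FPKM, also separated some groups. These differences stand beside the changes of Itgam, Trem2, Cd68, Tyrobp, Maf, Adgre1, Lyz2 and Lyz1 in the same comparisons, and their part in those results was not tested.

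**Figure D4:**
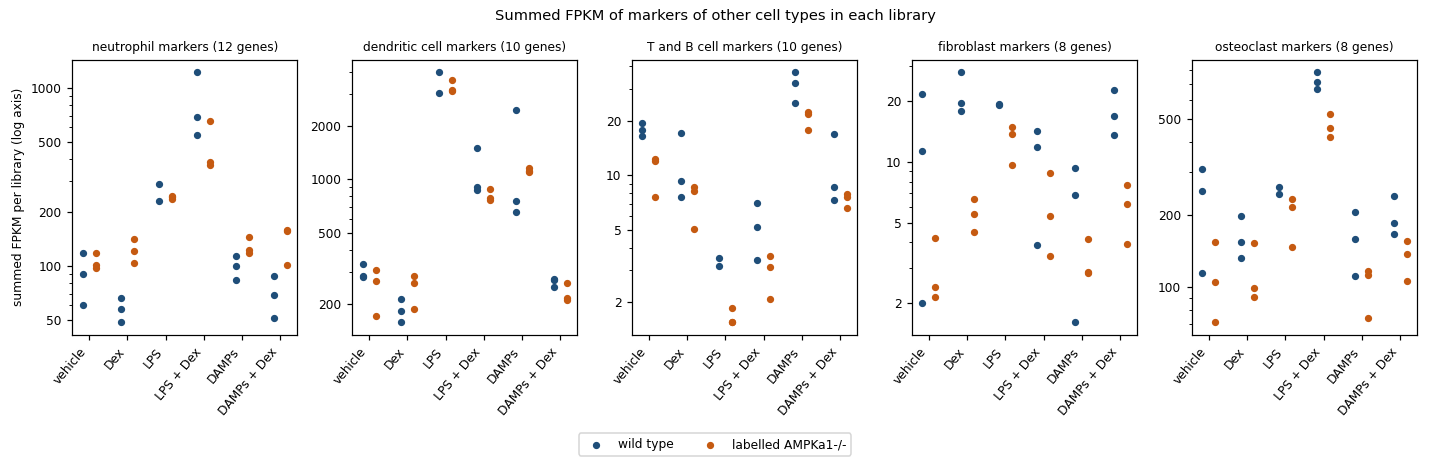
Summed FPKM (log axis, a separate range per panel) of 5 lists of markers of other cell types in each library by treatment, blue for wild type and orange for labelled AMPKa1-/-. The neutrophil sum reaches 1225 FPKM in a wild-type LPS + Dex library, the dendritic cell sum 3984 in a wild-type LPS library and the osteoclast sum 781 with LPS + Dex, while T and B cell and fibroblast sums stay at or under 37.1 FPKM.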

How the data were processed

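The 35 libraries were measured by bulk RNA-seq. The authors deposited 1 table of FPKM values per library, normalised by transcript length and library depth. The authors' processing notes name Bowtie2 2.2.3, TopHat2 2.0.12, HTSeq 0.6.1, DESeq2 and GRCm38. No source used here gives their settings, strand or annotation. No counts were used. Steps of 1 fragment in the FPKM values gave each library's depth: 55.8% to 64.2% of values under 10 fragments came out whole within 0.001, and 1 fragment on 1 kb was worth 0.0313 to 0.0631 FPKM. Libraries are described by the study as cultures from individual mice, and p-values measure only the spread between these libraries. Symbols and positions came from GENCODE M21.

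Genes with a mean of at least 1 FPKM (11354, all 9 genes included) were fitted together on log2(FPKM + 1), which shrinks the changes of low genes, by limma 3.58.1 (R 4.3.3) with trended variances and 12 group means. There were 23 comparisons, and 4 more on the Dex change by context and the rescaling without Saa3 were chosen after seeing the data. A p-value was adjusted by the Benjamini-Hochberg method over all genes within a comparison. The members, the 12 gene lists and the tests were chosen with earlier results of these data known. Named genes were the 9 genes, genes checking the label and agents, up to 3 genes per list with the largest called change in 2 wild-type comparisons (LPS against vehicle, LPS + Dex against LPS), the most abundant gene of each list for another cell type, and the 3 genes most like each of the 9. Itgb2, Itgax and the markers Csf1r, Mertk, Fcgr1 and Cd14 were named besides. A gene that the rule selects is not reported here. Replicate numbers paired the libraries by the data (3 pairs, each with r over 0.1) in 4 comparisons, all in libraries labelled AMPKa1-/-: Dex against vehicle (r 0.217 to 0.400), LPS against vehicle (0.124 to 0.316), LPS + Dex against LPS (0.356 to 0.375) and LPS + Dex against vehicle (0.246 to 0.365). Over all pairs of treatments, same-numbered libraries had a median r of 0.277 in wild type, and differently numbered ones -0.0971. In libraries labelled AMPKa1-/- these medians were 0.217 and -0.0866. The third replicate number of wild-type LPS, replicate 1, was not analysed here. Other scalings, filters and pseudocounts and leaving out each library were tried.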

Additional observations from a re-analysis of the deposited data

How the results depend on the processing

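Of 59 called results of the 9 genes, 36 kept their direction and their call under every alternative tried, among them the falls of Itgam and Trem2 with Dex alone and beside DAMPs, and the changes of Trem2, Cd68, Tyrobp and Adgre1 with LPS, in both genotypes. The other 23 lost the call in at least 1 alternative. None of the 3 calls between genotypes was kept throughout. With wild-type LPS reduced to 1 library, that library was taken to vary like the other groups.

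The number of the 9 genes called moved by more than 1.5 times as follows. With no filter on low values it was 1 for LPS + Dex against LPS in each genotype and 3 for DAMPs + Dex against DAMPs in libraries labelled AMPKa1-/-. With centring on a common median and with median-of-ratios scaling it was 3 each for the Dex change beside LPS minus alone in libraries labelled AMPKa1-/-. Quantile normalization gave 1 for LPS + Dex against LPS in wild type and 1 for DAMPs against vehicle in libraries labelled AMPKa1-/-, and fitting only the groups compared gave 0 for LPS + Dex against LPS in wild type, where Lyz2 and Tyrobp lost their calls. With the replicate block it was 4 for LPS + Dex against LPS in wild type and 2 for DAMPs against vehicle in libraries labelled AMPKa1-/-. In these comparisons the numbers did not meet the rule for pairing (3 pairs, each with r over 0.1). The former had just 2 pairs, with r of 0.113 and 0.429, and the latter had a lowest r of 0.0230. The genes the replicate block added were Maf (-0.75) and Cd68 (0.51) in the former and Lyz1 (1.30) and Trem2 (-0.61) in the latter. In other comparisons that did not meet the rule, it also added genes in wild type. These were Adgre1 for Dex (adjusted p = 0.0444) and for the Dex change beside LPS minus alone (0.70), and Cd68 and Lyz1 for DAMPs + Dex against DAMPs (adjusted p = 0.0299 and 0.0190). In the 4 comparisons where the numbers paired the libraries, the replicate block changed no call of the 9 genes. For the Dex change beside LPS minus alone over the same libraries it added Adgre1 (adjusted p = 0.0409). Leaving out each library gave 0 to 4 for Dex between genotypes (0 without replicate 2 of either Dex group), 0 to 1 for LPS + Dex between genotypes, 3 to 6 for DAMPs + Dex against DAMPs in wild type and 3 to 6 in libraries labelled AMPKa1-/-, and 3 to 5 for the Dex change beside LPS minus alone in libraries labelled AMPKa1-/-.

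Directions turned for values that were not called as deposited. All turned values were uncalled in the alternative too, except those of Lyz2 with quantile normalization. Rank fixed the direction of those Lyz2 values, because Lyz2 was the most abundant gene in every vehicle library and in no LPS + Dex library. With centring, Spi1 became 0.22 and Tyrobp 0.0029 for LPS + Dex against vehicle (Spi1 in wild type, Tyrobp in libraries labelled AMPKa1-/-), and Spi1 in libraries labelled AMPKa1-/- became 0.23 for LPS and 0.10 for LPS + Dex against vehicle. With median-of-ratios scaling these Spi1 values were 0.22, 0.23 and 0.0784. Rescaled without Saa3, Spi1 was 0.31 for LPS + Dex against vehicle in wild type, 0.10 in libraries labelled AMPKa1-/- and 0.0668 against LPS there, and Tyrobp was 0.00863. Quantile normalization gave Spi1 0.17 and Lyz2 -1.19 for LPS + Dex against vehicle in wild type, Lyz2 -0.95 in libraries labelled AMPKa1-/-, Cd68 -0.28 for Dex between genotypes and -0.18 for the interaction, and Spi1 0.0177 for the Dex change beside LPS minus alone in libraries labelled AMPKa1-/-. Leaving out each library, Itgam ran from -0.14 (without replicate 2 of wild-type LPS) to 0.68 (without replicate 3) for LPS against vehicle in wild type, from -0.48 to 0.34 for LPS + Dex against LPS, from -0.64 to 0.18 between genotypes with LPS, and from -0.66 to 0.17 and -0.12 to 0.70 for the interactions of LPS and of LPS + Dex against LPS, with the same 2 libraries at the ends. It ran from -0.28 to 0.24 between genotypes with DAMPs + Dex and from -0.22 to 0.25 for LPS in libraries labelled AMPKa1-/-. Between genotypes with LPS + Dex, Tyrobp ran from -0.0238 to 0.29 and Trem2 from -0.32 to 0.0675, and Maf ran from -0.46 to 0.28 for the interaction of LPS + Dex against LPS.

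Quantile normalization also added calls for Cd68 (-0.57) in DAMPs + Dex against DAMPs in wild type, for Tyrobp with Dex (-0.43) and Trem2 with DAMPs (-0.67) in libraries labelled AMPKa1-/-, and for Maf (-0.66), Adgre1 (-0.61) and Itgam (0.67) between genotypes with Dex. Fitting only the groups compared added Itgam (0.25) for LPS + Dex against vehicle in libraries labelled AMPKa1-/-. The Dex fall of Cd68 in those libraries was lost under each scaling other than quantile normalization, and all 6 calls of Lyz2 were lost with no filter.

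Over all genes, counts for the large treatment contrasts were within 1.5 times under each scaling. Those between genotypes were less steady: 3008 genes with Dex became 304 or 308 without replicate 2 of the wild-type or the other Dex group, 87 with LPS became 450 with no filter and 4 with only the groups compared, and the interaction counts of 0 became 21, 118, 75, 2 and 9 with no filter. For LPS + Dex against LPS in wild type 3871 became 1931 with only the groups compared. The share higher between genotypes went from 54.0% to 69.9% with LPS and from 50% to 60.8% with LPS + Dex after centring. Apart from what each alternative's construction shows, the cause was not tested.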
